A study of Homo sapiens with 10 samples.

Results

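The 41 genes described here encode cyclins, cyclin-dependent kinases (CDKs) and CDK inhibitors. They are the human protein-coding genes whose symbols are CCNA to CCNL with a number, CCNY, CDK with a number, or CDKN1A to CDKN1C and CDKN2A to CDKN2D, without CDK9, out of the 20098 genes annotated as protein-coding on chromosome X and the autosomes. The symbols were taken from the GENCODE annotation of the hg19 human genome build by this rule alone. The members fell into 10 cell cycle cyclins, 5 cell cycle kinases, 7 CDK inhibitors, 7 cyclins and kinases that act on transcription, and 12 other cyclins and kinases.

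The experiment mapped ZMYND8, a chromatin reader with PHD, bromodomain and PWWP modules, by ChIP-seq in HEK293 cells. This established human embryonic kidney line carries adenoviral early genes, and some of their products bind the retinoblastoma protein. ChIP-seq sequences the DNA that an antibody recovers with a chromatin protein, here from crosslinked chromatin digested with micrococcal nuclease. Of the 10 samples, 2 were ZMYND8 ChIP, 2 FLAG-ZMYND8 ChIP, 4 ChIP of the histone marks H3K14ac and H3K27ac, and 2 input DNA. In the FLAG-ZMYND8 ChIP, ZMYND8 with a 3×FLAG tag was induced by 10 nM doxycycline in Flp-In T-REx HEK293 cells and recovered with an antibody to the tag. In the ZMYND8 ChIP, an antibody to ZMYND8 itself was used, and the labels describe cells with a stable 3×FLAG-ZMYND8 transgene, either WT or the bromodomain mutant N228F, without saying which. The labels give doxycycline for the FLAG-ZMYND8 ChIP and its input only. The level of the tagged protein relative to the cells' own was not measured here. The data analysed were 1 list of peaks for ZMYND8 and 1 for FLAG-ZMYND8. The samples of histone marks and of input DNA were not analysed here.

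The ZMYND8 list held 15086 peaks, of which 53.0% had the minimum width of 151 bp, and the FLAG-ZMYND8 list held 63690 peaks, of which 54.7% had the minimum width of 167 bp. The score column was 1 in every row, so a peak's width was the only measure of its size. Neither list names replicates or read counts. The depth is therefore unknown, no spread between replicates could be given, and all counts below are descriptions without a test.

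Cyclins are the regulatory subunits of CDKs, and their levels or their inhibitors set when a CDK is active. D-type cyclins with CDK4 or CDK6 and E-type cyclins with CDK2 phosphorylate the retinoblastoma protein, which releases E2F factors and opens the way to S phase. A-type cyclins act with CDK2 and CDK1 in S phase and G2, and B-type cyclins with CDK1 drive mitosis. Inhibitors of the INK4 family (CDKN2 genes) bind CDK4 and CDK6, and those of the CIP/KIP family (CDKN1 genes) bind cyclin-CDK complexes more widely. Other members act on transcription: CDK7 belongs to the general factor TFIIH, CDK8 and CDK19 to the Mediator kinase module, CDK12 and CDK13 phosphorylate the tail of RNA polymerase II, and cyclins L1 and L2 are linked to pre-mRNA splicing.

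A gene was counted as having a peak at its transcription start site (TSS) when the midpoint of a peak lay within 3 kb of the 5′ end of the gene. A ZMYND8 peak lay at the TSS of 19 of the 41 members, or 46.3%, against 34.1% of all protein-coding genes. A FLAG-ZMYND8 peak lay at the TSS of 34 members, or 82.9%, against 58.1% of all genes. Both shares were above those of all genes, and the FLAG-ZMYND8 list reached most of the family. Peaks of both lists lay at 18 members (43.9%, against 29.4% of all genes), and peaks of the lists overlapped by at least 1 bp at 11 members (26.8%, against 20.3%). Overlap was found at 11 of the 18 members with peaks of both lists (61.1%), against 69.2% of such genes in general. With a reciprocal overlap of 50%, 3 members (7.32%) remained, close to the 8.37% of all genes. Differences of so few members are not read as a lower share.

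Members with a ZMYND8 peak mostly had a FLAG-ZMYND8 peak as well. All but 1 of the 19 members with a ZMYND8 peak also had a FLAG-ZMYND8 peak (94.7%, against 86.1% for all genes with a ZMYND8 peak), and the exception was CCNE1, which encodes an E-type cyclin. A FLAG-ZMYND8 peak without a ZMYND8 peak was found at 16 members, 39.0% of them, against 28.7% of all genes, and a ZMYND8 peak alone was found at 4.73% of all genes. Conversely, 52.9% of the members with a FLAG-ZMYND8 peak had a ZMYND8 peak, close to the 50.6% of all genes with a FLAG-ZMYND8 peak. Members and all genes thus differed more in how many carried a FLAG-ZMYND8 peak than in how often a ZMYND8 peak accompanied one. Neither list had a peak at the TSS of 6 members, CCNB3, CDKN1B, CCNI2, CCNY, CDK14 and CDK15 (14.6%), against 37.2% of all genes.

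The roles differed in their counts. ZMYND8 peaks lay at 9 of 15 cell cycle cyclins and kinases (60.0%), 4 of 7 inhibitors (57.1%), 5 of 7 transcriptional members (71.4%) and 1 of 12 other members (8.33%). FLAG-ZMYND8 peaks lay at 13 of 15 (86.7%), 6 of 7 (85.7%), 7 of 7 (100.0%) and 8 of 12 (66.7%). The other cyclins and kinases thus stood below all protein-coding genes for ZMYND8 and above them for FLAG-ZMYND8, whereas the remaining roles were above them in both lists.

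**Figure D1:**
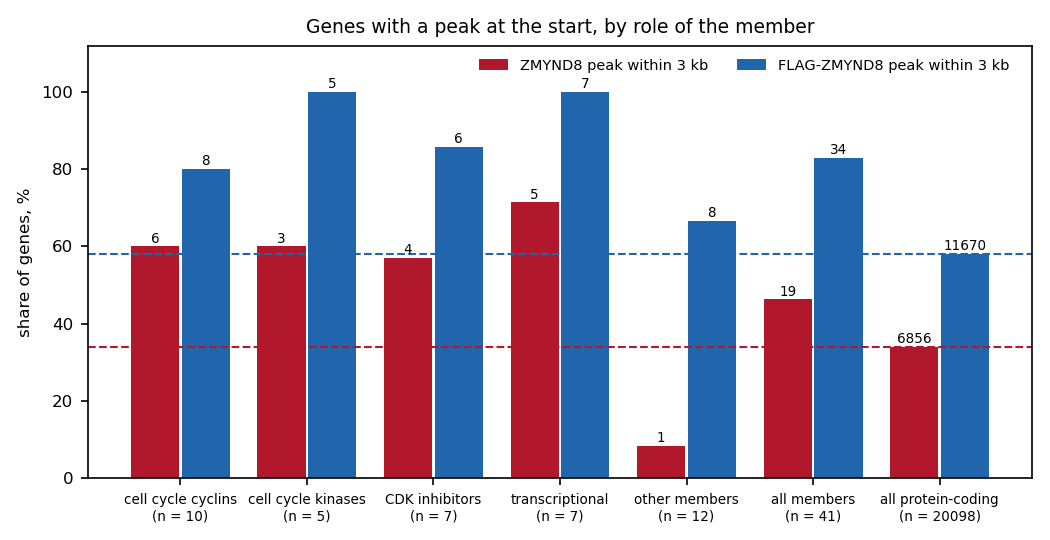
Share of genes (%, vertical axis) with a ZMYND8 or a FLAG-ZMYND8 peak midpoint within 3 kb of the gene start, for each role and for all 20098 protein-coding genes; the number above a bar is the number of genes. ZMYND8 peaks were found at 8.33% of the other cyclins and kinases and at 57.1 to 71.4% of the remaining roles.

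The reference sequences below lie where a ZMYND8 and a FLAG-ZMYND8 peak overlapped near a member's start, and they are shown as examples from each role of what peaks of both lists have in common, 6 of 15 such stretches at 11 members. Each is hg19 sequence read 5′ to 3′ on the strand of the gene, whole or as the central 300 bases, with annotated UTR parts left out. Capitals mark a match to the word of the CCAAT box, written CCAAT or, on the opposite strand, ATTGG. The CCAAT box is an element of many cell cycle promoters that binds NF-Y, but so short a match is not shown to be a binding site. No CHR word (TTTGAA or TTTAAA) or E2F word (TTTCCCGC, TTTCGCGC, TTTGCCGC or TTTGGCGC) was present in these 6 on either strand. Of the stretches not shown, 1 at CCNE2 held a CHR word and the other at CDK6 a CCAAT word. Only bases outside annotated UTRs were searched. The stretches of CCNL1 and the other of CDK12 lay wholly in UTRs and were not searched, and at CCNA2 only 10 of 271 bases were.
CCNB1, chr5:68462660-68462780, plus strand: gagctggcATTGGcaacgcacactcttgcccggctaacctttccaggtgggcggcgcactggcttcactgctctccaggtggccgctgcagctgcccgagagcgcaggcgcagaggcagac
CDK6, chr7:92464148-92464447, minus strand: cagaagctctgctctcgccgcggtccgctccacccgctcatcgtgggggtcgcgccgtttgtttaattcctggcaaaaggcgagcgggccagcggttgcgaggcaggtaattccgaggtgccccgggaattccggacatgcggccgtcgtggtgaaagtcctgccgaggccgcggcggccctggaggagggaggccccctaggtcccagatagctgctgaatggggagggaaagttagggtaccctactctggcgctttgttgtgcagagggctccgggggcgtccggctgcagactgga
CDK2, chr12:56360793-56360909, plus strand: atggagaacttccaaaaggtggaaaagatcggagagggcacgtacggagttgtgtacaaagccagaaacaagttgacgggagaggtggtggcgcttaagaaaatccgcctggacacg
CDKN2A, chr9:21995600-21995899, minus strand: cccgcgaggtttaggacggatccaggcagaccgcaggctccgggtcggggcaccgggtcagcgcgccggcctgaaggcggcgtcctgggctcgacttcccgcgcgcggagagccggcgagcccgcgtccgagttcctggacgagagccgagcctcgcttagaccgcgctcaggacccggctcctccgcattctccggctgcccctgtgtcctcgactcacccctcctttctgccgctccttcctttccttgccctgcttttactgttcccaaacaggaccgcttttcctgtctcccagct
CDK12, chr17:37619277-37619468, plus strand: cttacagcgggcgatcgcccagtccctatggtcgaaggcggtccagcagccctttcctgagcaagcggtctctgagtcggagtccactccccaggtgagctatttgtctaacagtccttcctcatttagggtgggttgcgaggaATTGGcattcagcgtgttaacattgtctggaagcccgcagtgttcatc
CDK20, chr9:90589227-90589361, minus strand: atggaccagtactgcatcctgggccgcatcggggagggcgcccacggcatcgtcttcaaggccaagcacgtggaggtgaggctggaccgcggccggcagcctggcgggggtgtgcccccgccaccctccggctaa

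The stretches ranged in GC content from 51.3% at CDK2 to 71.1% at CDK20. The CDK2 and CDK20 sequences begin with the ATG of the coding sequence, so the overlaps lay over the start of the open reading frame of these kinases. The CCNB1 sequence lies upstream of the gene, and those of CDK6 and CDK12 lie downstream of the start, that of CDK6 in an intron.

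Among the cell cycle cyclins, ZMYND8 peaks lay at the TSS of CCNA1, CCNA2, CCNB1, CCND2, CCNE1 and CCNE2, 6 of 10, and FLAG-ZMYND8 peaks at 8 of 10. CCNA2, the S phase and G2 cyclin, lies at chr4:122737599-122745038 on the minus strand. Its 271-bp ZMYND8 peak (chr4:122744778-122745048, midpoint 125 bp downstream of the start, in a UTR) lay wholly within a 462-bp FLAG-ZMYND8 peak (chr4:122744588-122745049, 220 bp downstream). Both peaks covered the annotated start of the gene.

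CCNB1 encodes a mitotic cyclin and lies at chr5:68462962-68474072 on the plus strand. Its 273-bp ZMYND8 peak (chr5:68462508-68462780, 318 bp upstream) overlapped the FLAG-ZMYND8 peak at chr5:68462660-68462826, 219 bp upstream. A further 3 FLAG-ZMYND8 peaks, at chr5:68461341-68461507 (1538 bp upstream), chr5:68463061-68463227 (182 bp downstream) and chr5:68465033-68465199 (2154 bp downstream), had no ZMYND8 partner. All 4 FLAG-ZMYND8 peaks had the minimum width. CCNB2, its close relative, had a 384-bp FLAG-ZMYND8 peak 185 bp downstream of the start and its nearest ZMYND8 peak was 171415 bp away. CCNB3, on chromosome X, had a peak of neither list, and the nearest ones lay 279582 bp (ZMYND8) and 245973 bp (FLAG-ZMYND8) away.

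The E-type cyclins, partners of CDK2 at the start of S phase, differed from each other. CCNE2 (chr8:95891998-95908906, minus strand) had 2 ZMYND8 peaks, of 825 bp (chr8:95908242-95909066, 252 bp downstream) and 409 bp (chr8:95906964-95907372, 1738 bp downstream). Its 3 FLAG-ZMYND8 peaks were at chr8:95908541-95908851 (311 bp wide, 210 bp downstream), chr8:95907687-95907946 (260 bp wide, 1090 bp downstream) and chr8:95907179-95907430 (252 bp wide, 1602 bp downstream). Both ZMYND8 peaks overlapped one of them. The start of NDUFAF6 lay within 3 kb of all 5 peaks. It was nearer than the gene start of CCNE2 for 3 of them, the 409-bp ZMYND8 peak (593 bp) and the FLAG-ZMYND8 peaks of 260 bp (55 bp) and 252 bp (457 bp). For the 260-bp peak it was also nearer than the canonical CCNE2 start, which lies 1477 bp into the gene. CCNE1 had only a ZMYND8 peak of the minimum width, 433 bp upstream, with the nearest FLAG-ZMYND8 peak 33583 bp away.

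The A-type cyclin CCNA1 (chr13:37005657-37017007, plus strand) had a 226-bp ZMYND8 peak (chr13:37005473-37005698, 72 bp upstream) and, apart from it, a 167-bp FLAG-ZMYND8 peak (chr13:37006538-37006704, 964 bp downstream). The FLAG-ZMYND8 peak covered the start of the canonical transcript, the transcript that the annotation takes as the gene's representative, which lay 975 bp into the gene.

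The D-type cyclins, the partners of CDK4 and CDK6, had peaks in different lists. CCND1 had 4 FLAG-ZMYND8 peaks at its TSS, the nearest 413 bp wide and 221 bp downstream, and its nearest ZMYND8 peak was 176678 bp away. CCND3 had 3 FLAG-ZMYND8 peaks at its gene start, 252 to 767 bp wide, where the start of TAF8 was also within 3 kb, and no ZMYND8 peak there. CCND2 (chr12:4378937-4414519, plus strand) had a 195-bp ZMYND8 peak 290 bp upstream (chr12:4378550-4378744). Its 3 FLAG-ZMYND8 peaks at the start were 296 bp (chr12:4378954-4379249, 164 bp downstream), 482 bp (chr12:4379983-4380464, 1286 bp downstream) and 936 bp wide (chr12:4381400-4382335, 2930 bp downstream), and none overlapped that ZMYND8 peak.

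CCND2 also held the widest ZMYND8 peak of the family. This peak spanned 3656 bp (chr12:4380371-4384026) and ranked 17 of 15086 by width. Its midpoint lay 3261 bp into the gene, just beyond the 3 kb limit, so it was counted in the body. It covered the start of the canonical CCND2 transcript, which lies 3991 bp into the gene, and overlapped 4 FLAG-ZMYND8 peaks. The start of another gene annotated as protein-coding was as far from its midpoint as that canonical start, 730 bp. In CCND3 the canonical start lies 108549 bp into the gene, and a 441-bp ZMYND8 peak (chr6:41909370-41909810) covered it, with FLAG-ZMYND8 peaks of 734 and 217 bp at 680 and 2343 bp downstream. By the canonical start, CCND2 and CCND3 therefore had peaks of both lists and CCND1 of FLAG-ZMYND8 alone.

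**Figure D2:**
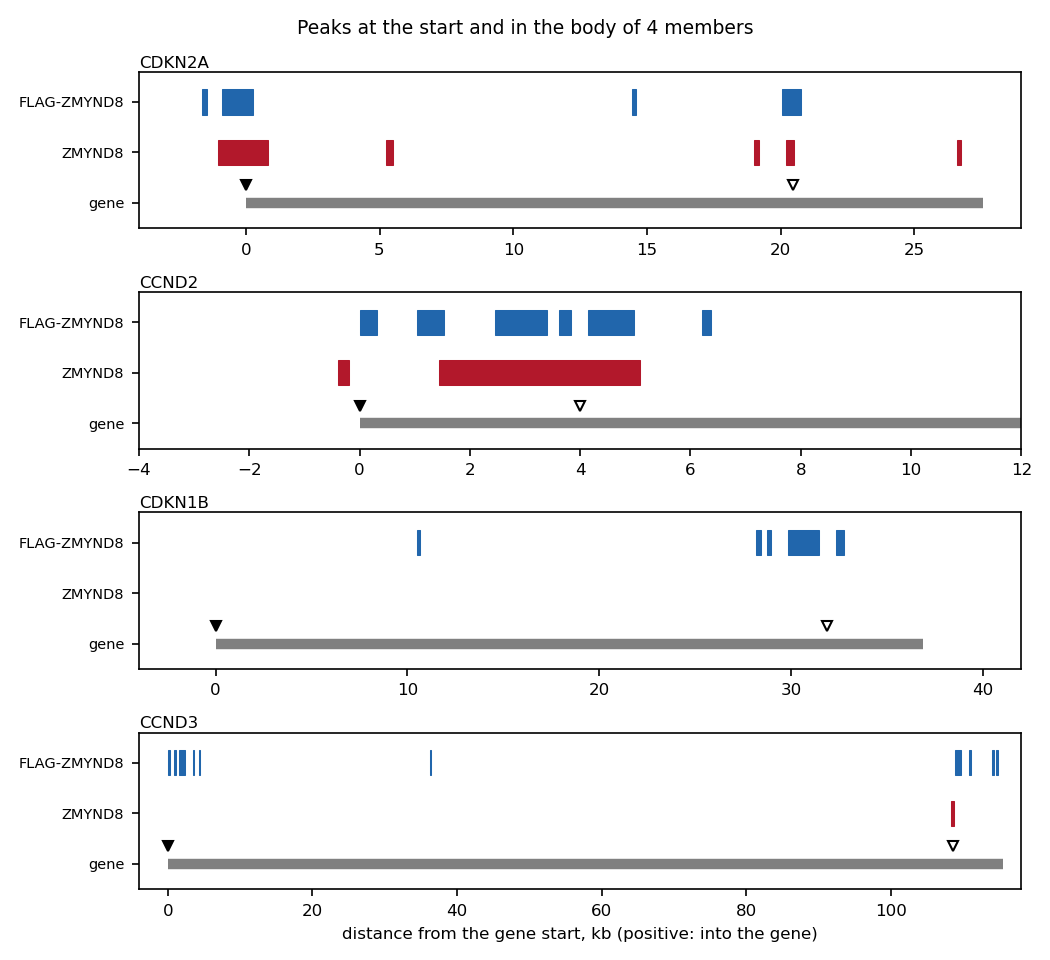
Peaks at CDKN2A, CCND2, CDKN1B and CCND3 against the distance from the gene start in kb, each gene on its own scale, with ZMYND8 peaks in red, FLAG-ZMYND8 peaks in blue, the gene in grey (CCND2 is cut at 12 kb), a filled triangle at the gene start and an open one at the canonical start. The 3656-bp ZMYND8 peak of CCND2 covers its open triangle, as a ZMYND8 peak does in CDKN2A and CCND3, and CDKN1B shows FLAG-ZMYND8 peaks only.

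All 5 cell cycle kinases had a FLAG-ZMYND8 peak at the TSS, and CDK1, CDK2 and CDK6 also had an overlapping ZMYND8 peak. CDK6, the partner of the D-type cyclins (chr7:92234235-92465887, minus strand), had 2 ZMYND8 peaks, of 602 bp over the start (chr7:92465442-92466043, 145 bp downstream) and 880 bp in an intron (chr7:92463713-92464592, 1735 bp downstream). Its 4 FLAG-ZMYND8 peaks were at chr7:92466091-92466257 (167 bp wide, 287 bp upstream), chr7:92465719-92465885 (167 bp, 85 bp downstream), chr7:92464898-92465434 (537 bp, 721 bp downstream) and chr7:92464086-92464510 (425 bp, 1589 bp downstream). The second and last of these overlapped a ZMYND8 peak. CDK4, which shares these cyclins, had a 773-bp FLAG-ZMYND8 peak 183 bp downstream of its start and its nearest ZMYND8 peak 10951 bp upstream. The start of MARCHF9 was 727 bp from the midpoint of that FLAG-ZMYND8 peak.

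CDK1, the mitotic kinase (chr10:62538089-62554610, plus strand), had a 281-bp ZMYND8 peak (chr10:62538608-62538888, 659 bp downstream) and a 559-bp FLAG-ZMYND8 peak (chr10:62538198-62538756, 388 bp downstream), both with midpoints in an intron. CDK2, the S phase kinase (chr12:56360565-56366573, plus strand), had 2 ZMYND8 peaks of the minimum width, at chr12:56358903-56359053 (1587 bp upstream) and chr12:56360768-56360918 (278 bp downstream). The downstream one lay wholly within its 482-bp FLAG-ZMYND8 peak (chr12:56360615-56361096, 290 bp downstream). CDK3 had 1 FLAG-ZMYND8 peak, of the minimum width, 1826 bp downstream. The widest ZMYND8 peak of the 5 kinases was thus the 880-bp peak of CDK6 and the widest FLAG-ZMYND8 peak the 773-bp peak of CDK4.

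Among the inhibitors, CDKN2A, which encodes INK4a and, from a start farther upstream, ARF, carried the widest peak at a gene start of the family. The gene lies at chr9:21967751-21995300 on the minus strand, and its ZMYND8 peak spanned 1886 bp (chr9:21994457-21996342, midpoint 99 bp upstream), rank 153 of the list. A 1179-bp FLAG-ZMYND8 peak lay wholly within it (chr9:21995021-21996199, 310 bp upstream), and a 167-bp one (chr9:21996770-21996936) was 1553 bp upstream. The canonical start, 20444 bp into the gene, was covered by a second overlapping pair, a 307-bp ZMYND8 (chr9:21974788-21975094) and a 710-bp FLAG-ZMYND8 peak (chr9:21974547-21975256). Both annotated starts of CDKN2A therefore carried peaks of both lists. CDKN2B, the neighbouring INK4 gene, had FLAG-ZMYND8 peaks of 382 and 167 bp, 173 and 2084 bp downstream, and its nearest ZMYND8 peak was that of CDKN2A, 13905 bp away.

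CDKN1A, the CIP/KIP inhibitor induced by p53 (chr6:36644237-36655114, plus strand), had 1 ZMYND8 peak of the minimum width (chr6:36644316-36644466, 154 bp downstream). Its 4 FLAG-ZMYND8 peaks, at chr6:36643276-36643442 (167 bp wide, 878 bp upstream), chr6:36643949-36644247 (299 bp, 139 bp upstream), chr6:36645720-36645973 (254 bp, 1609 bp downstream) and chr6:36646491-36647486 (996 bp, 2751 bp downstream), did not overlap it. The 996-bp peak covered the canonical start, 2254 bp into the gene. CDKN1C, an imprinted CIP/KIP gene (chr11:2904443-2907005, minus strand), had a 304-bp ZMYND8 peak in its coding sequence (chr11:2906342-2906645, 512 bp downstream). Its 3 FLAG-ZMYND8 peaks had the minimum width, and the one at chr11:2906562-2906728, 360 bp downstream, overlapped the ZMYND8 peak. The other two lay at chr11:2907855-2908021 (933 bp upstream) and chr11:2903967-2904133 (2955 bp downstream, past the end of the gene).

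CDKN1B, the remaining CIP/KIP gene, had no peak at its gene start, but the canonical start lies 31870 bp into the gene. There the FLAG-ZMYND8 list had a 1595-bp peak (chr12:12868295-12869889, 1210 bp upstream of the canonical start), rank 260 of 63690 and the widest FLAG-ZMYND8 peak in any member, and a 397-bp peak 694 bp downstream. The nearest ZMYND8 peak, 1793 bp wide, was 7468 bp from that start. Near its canonical start, CDKN1B thus had a wide peak in the FLAG-ZMYND8 list only.

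For both remaining INK4 genes the peaks at the gene start were nearer to the start of another gene. CDKN2C (chr1:51426417-51440306, plus strand) had a 229-bp ZMYND8 (chr1:51425755-51425983, 548 bp upstream) and a 167-bp FLAG-ZMYND8 peak (chr1:51425359-51425525, 975 bp upstream), but their midpoints were 70 and 497 bp from the start of FAF1. At the canonical start of CDKN2C, 9500 bp into the gene, FLAG-ZMYND8 peaks of 167 bp (chr1:51435964-51436130, 130 bp downstream, in coding sequence) and 506 bp (chr1:51433734-51434239, 1931 bp upstream) had no other protein-coding start within 3 kb, and no ZMYND8 peak was there. CDKN2D had 1 FLAG-ZMYND8 peak, 250 bp wide and 2729 bp downstream of the start, past the end of the gene and 299 bp from the start of KRI1. Which gene such a peak belongs to cannot be told from its position.

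All 7 transcriptional members had a FLAG-ZMYND8 peak at the TSS, and CCNL1, CCNL2, CDK8, CDK12 and CDK13 also had a ZMYND8 peak. CDK12 (chr17:37617739-37723812, plus strand) had ZMYND8 peaks of 456 bp (chr17:37617959-37618414, 447 bp downstream) and 192 bp (chr17:37619277-37619468, 1633 bp downstream). Each overlapped a FLAG-ZMYND8 peak, of 502 bp (chr17:37617737-37618238, 248 bp downstream) and 250 bp (chr17:37619231-37619480, 1616 bp downstream), and another of 167 bp stood alone (chr17:37617168-37617334, 488 bp upstream). CDK13, its close relative (chr7:39989720-40139179, plus strand), had a 313-bp ZMYND8 peak in its coding sequence (chr7:39991098-39991410, 1534 bp downstream). None of its 4 FLAG-ZMYND8 peaks overlapped it, at chr7:39988749-39988915 (167 bp wide, 888 bp upstream), chr7:39989661-39989827 (167 bp, 24 bp downstream), chr7:39990210-39990668 (459 bp, 719 bp downstream) and chr7:39991434-39991642 (209 bp, 1818 bp downstream). CDK12 and CDK13 thus both had ZMYND8 peaks, and peaks of the 2 lists overlapped at CDK12 only.

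The L-type cyclins both had a ZMYND8 peak near the start. CCNL1 (chr3:156864297-156878549, minus strand) had a 537-bp ZMYND8 peak (chr3:156877915-156878451, 366 bp downstream) that overlapped FLAG-ZMYND8 peaks of 278 bp (chr3:156878215-156878492, 196 bp downstream) and 509 bp (chr3:156877525-156878033, 770 bp downstream). Further FLAG-ZMYND8 peaks of 212 bp (chr3:156879494-156879705) and 252 bp (chr3:156880616-156880867) lay 1050 and 2192 bp upstream. CCNL2 (chr1:1321091-1334715, minus strand) had a 468-bp ZMYND8 peak just upstream (chr1:1334721-1335188, 239 bp). Its FLAG-ZMYND8 peaks, of 211 bp (chr1:1335803-1336013) and 232 bp (chr1:1337027-1337258), lay 1193 and 2427 bp upstream and did not overlap it.

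Of the Mediator kinases, CDK8 (chr13:26828241-26995119, plus strand) had a ZMYND8 peak of the minimum width in its coding sequence (chr13:26828825-26828975, 659 bp downstream) and, apart from it, a FLAG-ZMYND8 peak of the minimum width (chr13:26828054-26828220, 104 bp upstream). Its paralog CDK19 had a 210-bp FLAG-ZMYND8 peak 192 bp downstream, and its nearest ZMYND8 peak was 57224 bp away. CDK7, the TFIIH kinase, had 1 FLAG-ZMYND8 peak of the minimum width 2039 bp upstream, and its nearest ZMYND8 peak was 67978 bp away.

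**Figure D3:**
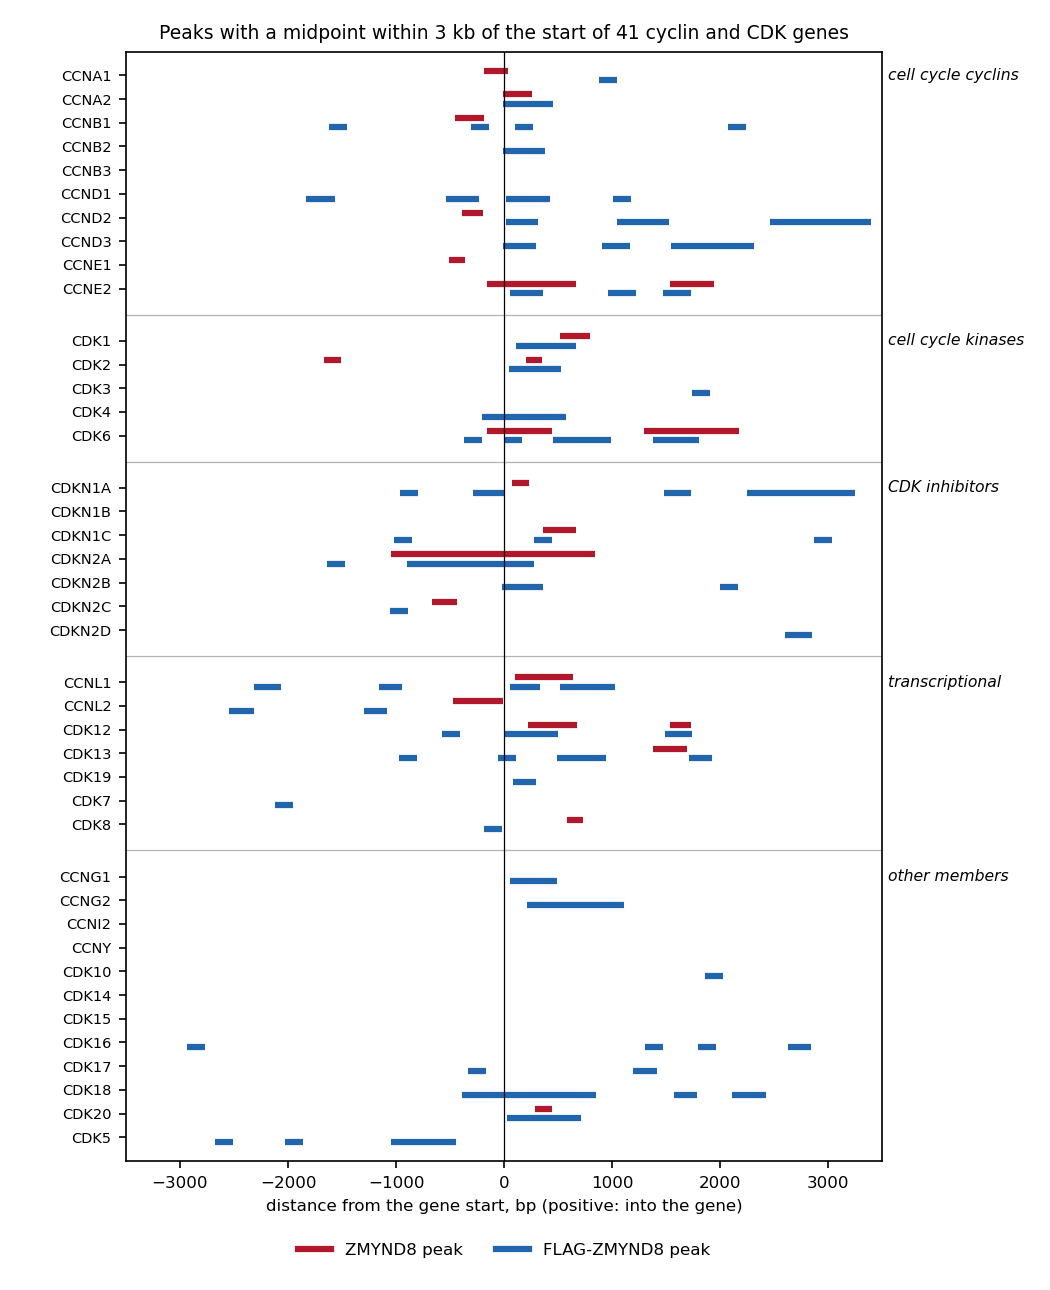
Every peak with its midpoint within 3 kb of a member's start, drawn to scale against the distance from the gene start in bp (positive values lie downstream of the start), with ZMYND8 peaks in red and FLAG-ZMYND8 peaks in blue and the members grouped by role. Red bars appear in all roles but only at CDK20 among the other members, and 6 rows are empty.

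Only CDK20 among the 12 other members had a ZMYND8 peak at the TSS. CDK20, also known as cell cycle-related kinase (chr9:90581356-90589668, minus strand), had a ZMYND8 peak of the minimum width (chr9:90589227-90589377, 366 bp downstream) that lay wholly within a 689-bp FLAG-ZMYND8 peak (chr9:90588953-90589641, 371 bp downstream). CDK18 had the widest FLAG-ZMYND8 peak at a member's gene start, 1239 bp, 231 bp downstream, rank 580 of the list. CCNG2, which encodes a G-type cyclin tied to cell cycle arrest, had an 895-bp FLAG-ZMYND8 peak 659 bp downstream, and CCNG1, a p53 target, a 432-bp one 276 bp downstream. CDK5, the neuronal kinase, had its nearest FLAG-ZMYND8 peak, 595 bp wide, 745 bp upstream. The start of SLC4A2 was 1432 bp from the midpoint of that peak. The nearest FLAG-ZMYND8 peaks of CDK16, CDK17 and CDK10 were 167 bp wide, at 1388 bp downstream, 251 bp upstream and 1947 bp downstream.

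Cell cycle and transcriptional members were compared with each other. ZMYND8 peaks lay at 9 of 15 against 5 of 7 (34.1% of all genes) and FLAG-ZMYND8 peaks at 13 of 15 against 7 of 7 (58.1% of all genes). Peaks of both lists lay at 8 of 15 (53.3%) against 5 of 7 (71.4%), with 29.4% of all genes. Overlapping peaks lay at 6 of 15 (40.0%) against 2 of 7 (28.6%), with 20.3% of all genes. Per gene, cell cycle members had a mean of 0.80 ZMYND8 and 1.87 FLAG-ZMYND8 peaks, transcriptional members 0.857 and 2.29, and all protein-coding genes 0.376 and 1.12. Both roles were above all genes in these means. With the midpoint within 1 kb, the order turned in both lists. For ZMYND8 it was 9 of 15 (60.0%) against 4 of 7 (57.1%), and for FLAG-ZMYND8 12 of 15 (80.0%) against 5 of 7 (71.4%). The shares of all genes within 1 kb were 28.5% for ZMYND8 and 49.3% for FLAG-ZMYND8. Within 500 bp, ZMYND8 peaks lay at 8 of 15 (53.3%) against 3 of 7 (42.9%), with 21.5% of all genes. FLAG-ZMYND8 peaks lay there at 11 of 15 (73.3%) against 5 of 7 (71.4%), with 37.6% of all genes. With so few genes and 1 list per target, these counts do not show that the roles differ.

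Several peaks at 1 start were frequent. At least 3 FLAG-ZMYND8 peaks lay at 14 members (34.1%), against 14.5% of all genes, and at least 2 ZMYND8 peaks at 4 members (9.76%), CCNE2, CDK2, CDK6 and CDK12, against 3.41%. In all, 23 ZMYND8 and 73 FLAG-ZMYND8 peaks lay at the members' starts. The ZMYND8 peaks had a median width of 273 bp against 226 bp for peaks at the starts of all genes, and 26.1% against 36.2% had the minimum width. The FLAG-ZMYND8 peaks had a median of 250 bp against 227 bp, with 38.4% against 36.0% at the minimum.

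By place, 7 of the 23 ZMYND8 midpoints at starts were in introns, 5 in coding sequence, 3 in UTRs and 8 upstream, and of the 73 FLAG-ZMYND8 midpoints 26 were in introns and 24 upstream. Within 1 kb of the start, 61.1% of ZMYND8 peaks and 65.8% of FLAG-ZMYND8 peaks lay on the downstream side, against 65.8% and 60.0% at all genes. The inhibitors had more FLAG-ZMYND8 peaks upstream, 5 against 2 downstream, and the cell cycle members fewer, 3 against 13. The inhibitors' numbers are small, and their upstream peak at CDKN2C was nearer to the start of FAF1. Those at CDKN1A lay by its gene start, which is 2254 bp from its canonical start. The median GC content of the peaks was 65.5% for ZMYND8 and 62.1% for FLAG-ZMYND8, against 66.5% and 62.1% at all genes, so the members' peaks resembled others at starts in composition.

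The choice of start changed single members more than the counts. At canonical starts, ZMYND8 peaks lay within 3 kb of 20 members (48.8%, against 35.6% of all genes) and FLAG-ZMYND8 peaks of 36 (87.8%, against 60.3%). For ZMYND8, CCND3 and CDK10 were gained and CDKN2C was lost; for FLAG-ZMYND8, CDK14, CDK15 and CDKN1B were gained and CDK10 was lost. CDK10 gained a 799-bp ZMYND8 peak (chr16:89753097-89753895), 399 bp downstream of its canonical start. A ZMYND8 peak covered the canonical start itself at 7 members, CCNA2, CCND2, CCND3, CCNL1, CDK6, CDK10 and CDKN2A (17.1%, against 10.7% of all genes), and a FLAG-ZMYND8 peak did so at 13 (31.7%, against 14.1%).

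Gene bodies, from 3 kb downstream of the start to the 3′ end, gave shares that depended on peak width. ZMYND8 peaks lay in the bodies of 7 members (17.1%, against 19.0% of all genes) and FLAG-ZMYND8 peaks in those of 19 (46.3%, against 44.6%). Among peaks wider than the minimum, the counts were 7 (17.1%, against 8.76%) and 17 (41.5%, against 26.4%), so the members were above all genes for wider peaks and close to them for all peaks. Per 100 kb of body, members had 0.404 ZMYND8 and 2.39 FLAG-ZMYND8 peaks and all protein-coding genes 0.443 and 2.49. The members' bodies were shorter, with a median of 13.5 kb over the 39 members that have one, against 28.8 kb. Of the 12 ZMYND8 body peaks, 5 lay within 3 kb of a canonical start, as did 16 of the 71 FLAG-ZMYND8 body peaks, so part of what was counted in bodies was near another start of the same gene.

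**Figure D4:**
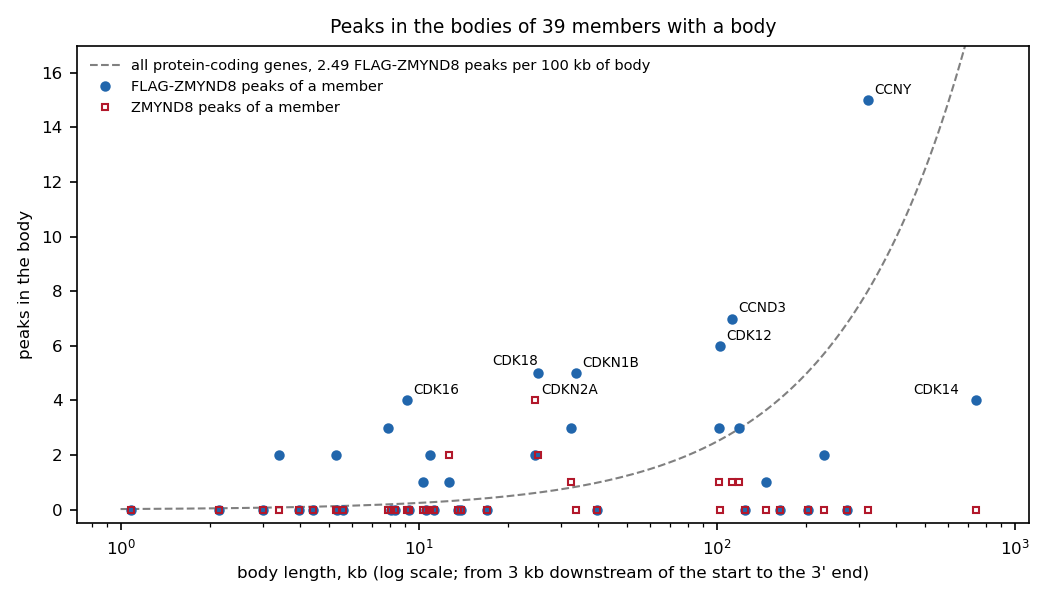
Number of peaks in the body (vertical axis) against body length in kb (log scale) for the 39 members with a body, with FLAG-ZMYND8 as blue points and ZMYND8 as red squares; the dashed line is the 2.49 FLAG-ZMYND8 peaks per 100 kb of all protein-coding genes. CCNY has 15 FLAG-ZMYND8 peaks and CDKN2A 4 ZMYND8 peaks, and CDK14 lies far below the line.

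Peaks were unevenly spread over single bodies. CDKN2A had 4 ZMYND8 body peaks, a number reached by 1.07% of all genes, at chr9:21989779-21990067 (289 bp), chr9:21976103-21976313 (211 bp), chr9:21974788-21975094 (307 bp) and chr9:21968559-21968709 (151 bp). CCNY, a membrane-bound cyclin, had 15 FLAG-ZMYND8 peaks in a body of 322644 bp, a number reached by 1.55% of all genes, and no ZMYND8 peak. Per 100 kb this was 4.65 peaks, above the 2.49 over the bodies of all protein-coding genes and the 2.39 over those of members. It was below the medians of 5.22 over all genes with a FLAG-ZMYND8 body peak and 8.15 over such members. Genes without a body peak do not enter these medians. The short bodies of CDKN2B, CDK16 and CDKN1A were denser, with 2, 4 and 3 peaks or 58.8, 43.8 and 38.1 per 100 kb. CCND3 had 7 FLAG-ZMYND8 body peaks, CDK12 had 6, and CDK18 and CDKN1B had 5 each. CDK14 had 4 in a body of 741167 bp, or 0.54 per 100 kb. The inhibitors together had 17.4 FLAG-ZMYND8 and 4.96 ZMYND8 peaks per 100 kb over 5 short bodies, the transcriptional members 1.03 and 0 over 7 bodies with a median of 103 kb. The inhibitors' ZMYND8 body peaks were all in CDKN2A, including those 85 and 1352 bp from its canonical start. Some FLAG-ZMYND8 body peaks of CDKN2A, CDKN2C, CDKN1A and CDKN1B also lay within 3 kb of the canonical start. The remaining ZMYND8 body peaks were 1 each in CCND2, CCND3, CDK15 and CDK17 and 2 each in CDK10 and CDK18.

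The members' promoters, taken as 250 bases before to 50 from the canonical start on, had a median GC content of 66.0% and 26 CpG sites, against 63.7% and 23 over 19819 promoters. A CCAAT box (CCAAT or ATTGG) was found in 16 members (39.0%), against 36.0% of all promoters. It was held by 8 of 15 cell cycle members (53.3%), 4 of 7 inhibitors (57.1%), 1 of 7 transcriptional members (14.3%), CCNL2, and 3 of 12 others (25.0%). A CHR word (TTTGAA or TTTAAA on either strand), a part of promoters that are active in G2 and mitosis, was found in 8 of 41 members (19.5%), 5 of them cell cycle members, against 18.4% of all promoters, and an E2F word in CDK1, CCND1 and CDK10, 3 of 41 (7.32%), against 4.38%. CDK1 held all 3 kinds, with 2 CCAAT boxes, 3 CHR words and 1 E2F word, and CCNB2 held 4 CCAAT boxes and 2 CHR words. CDK1 had peaks of both lists and CCNB2 of FLAG-ZMYND8 alone. Such words are short matches and not shown to be binding sites.

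The other genes of the pathway, a list of 40 E2F factors, pocket proteins, CDK regulators and cyclins or kinases with other symbols, had higher shares than the members for ZMYND8. ZMYND8 peaks lay at 26 (65.0%), FLAG-ZMYND8 peaks at 33 (82.5%), both at 23 and overlapping peaks at 17. Over all protein-coding genes the shares were 34.1% for ZMYND8, 58.1% for FLAG-ZMYND8, 29.4% for both and 20.3% for overlapping peaks. Among the 13 E2F and pocket protein genes the counts were 9 (69.2%) and 12 (92.3%), with overlapping peaks at 7. RB1, which encodes the retinoblastoma protein, had peaks of 956 bp for ZMYND8 and 982 bp for FLAG-ZMYND8. Among 14 regulators of CDK activity they were 9 (64.3%) and 13 (92.9%), and among 13 relatives 8 (61.5%) in each list. The relatives' FLAG-ZMYND8 share was close to the 58.1% of all genes.

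The widest ZMYND8 peaks at starts of this list were at FBXW7, a ubiquitin ligase subunit that targets cyclin E (1504 bp), CCNJ, a cyclin (1259 bp), and TFDP1, the dimer partner of E2F factors (994 bp). All were narrower than the 1886-bp peak of CDKN2A. CCNJL, CCNP, CDK11A and CDK11B had no peak of either list at the gene start, though CCNJL had peaks of both lists at its canonical start. Whether reads map uniquely to CDK11A and CDK11B, which are near-identical copies, was not tested, so the lack of peaks there is uncertain. The list was chosen with earlier results of these lists known, and its counts are descriptions.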

How the data were processed

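The authors mapped the reads of the ZMYND8 and FLAG-ZMYND8 ChIP-seq to hg19 with BWA-MEM and used HOMER, and the submitters' processing notes give BWA 0.7. The peak-calling settings and the way replicates were combined are not given in the sources used here. Each deposited list has 6 columns without a header, and the deposited score is 1 in every row.

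Peaks were compared with GENCODE release 44 lifted to GRCh37, the build of hg19. The gene start was the 5′ end of the gene, and 279 genes without a canonical transcript were left out where that start was used. Midpoints within 3 kb were counted at the TSS, later ones up to the 3′ end in the body, and overlaps needed 1 bp. Sequences came from GRCh37, and 1 of those chosen is not reported here. The placing of peaks was tested on simulated lists. No statistical test was run, since each target has 1 list and genes of a family are not replicates. The rule for members reads symbols only, but this family, its roles, the pathway genes and the alternatives were chosen with earlier results of these data known. All members were named, those with peaks of both lists in full, and 3 pathway genes by ZMYND8 width. Alternatives were narrower windows, any overlapping base, other starts, wider peaks, other roles and stricter overlap. Python 3.11.15, numpy 2.4.6, pandas 2.3.3 and matplotlib 3.10.9 were used.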

Additional observations from a re-analysis of the deposited data

How the results depend on the processing

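Of 56 combinations of a count and an alternative, 49 stayed within 1.5 times the reported count. With the midpoint within 500 bp, members with peaks of both lists fell from 18 to 11 (26.8%, against 14.5% of all genes) and transcriptional members with a ZMYND8 peak from 5 to 3 (42.9%, against 21.5%). With peaks wider than the minimum, members with peaks of both lists numbered 10 (24.4%, against 18.2%) and those with overlapping peaks 7 in place of 11 (17.1%, against 14.2%). A reciprocal overlap of 50% left 3 with overlapping peaks (7.32%, against 8.37%). In the other combinations named here the members stayed above all genes, whose shares fell too. Counting the whole gene from its TSS as body, which adds the first 3 kb, gave 19 members for ZMYND8 in place of 7 (46.3%, against 37.5%) and 33 for FLAG-ZMYND8 in place of 19 (80.5%, against 64.8%). The canonical start was chosen after seeing the data. It moved none of the 8 counts recomputed with it by over 1.5 times, but the other cyclins and kinases with a ZMYND8 peak, not among these, went from 1 to 2 of 12. With any annotated transcript start, ZMYND8 peaks lay at 22 members (53.7%, against 40.2%) and FLAG-ZMYND8 peaks at 38 (92.7%, against 65.0%). Among those gained for ZMYND8 were CDK10 and CDK18, both of the other cyclins and kinases. No paired analysis was possible because replicates are not told apart in either list, which also kept any single replicate from being left out. The lists give no counts, so the absence of a peak at a member is not shown to be an absence of binding.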
